A study of Mus musculus with 6 samples.

Results

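mmu-miR-25-3p, mmu-miR-92a-3p and mmu-miR-92b-3p (below miR-25-3p, miR-92a-3p and miR-92b-3p) are 3 guide strands of the miR-25/92 family that come from the 3p arms of hairpins in different clusters. They were chosen by name from the 298 miRNAs that had at least 1 hybrid and are called the members below. miR-363-3p and miR-367-3p are 3p strands with the same seed and are not counted as members. The members were measured by CLASH on the Argonaute protein AGO2. After cross-linking, the miRNA in AGO2 is ligated to the mRNA piece beside it, and sequencing the hybrid identifies both. The cells were P19, a mouse embryonic carcinoma line grown from a teratocarcinoma, in 2 genotypes with 3 libraries each. WT cells carry both intact Dicer1 alleles, labelled Dicer (+/+). HM cells, labelled Dicer (HM/-), are an edited line whose Dicer1 alleles are a hotspot mutant of RNase IIIb and a frameshift loss-of-function allele, so that the hotspot is never seen apart from the loss of an allele or from the history of that line. The 3 strands gave 860 of 15680 hybrid reads (5.48%), in 845 distinct entries, on 260 of 3200 target genes.

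In a miRNA hairpin the RNase IIIb domain of Dicer cuts the 5p arm and the RNase IIIa domain cuts the 3p arm. A guide strand is loaded into AGO2 and finds mRNAs mainly by pairing of its seed, the bases near its 5′ end, with a site in the 3′ UTR, and bases of its 3′ end can add to the pairing. The miR-25/92 family is found throughout vertebrates. miR-92a is made from the miR-17-92 cluster, known as an oncogenic cluster, and from its paralog on the X chromosome, miR-25 is made from the miR-106b-25 cluster in an intron of Mcm7, and miR-92b from a locus of its own. Genes known as targets of the family include regulators of the cell cycle and of apoptosis.

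The mature sequences are shown because the strands share a seed and differ in bases outside it. They are from RefSeq (assembly GRCm38.p6), 5′ to 3′, with the seed (bases 2 to 8) in capitals:
miR-25-3p: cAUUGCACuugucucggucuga
miR-92a-3p: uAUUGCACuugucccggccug
miR-92b-3p: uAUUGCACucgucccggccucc

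The miR-25-3p sequence lies in Mir25 at chr5:138165332-138165353 on the minus strand. miR-92a-3p is encoded at both Mir92-1 (chr14:115044476-115044496, plus strand) and Mir92-2 (chrX:52741854-52741874, minus strand), so its reads cannot be split between these loci. miR-92b-3p lies in Mir92b at chr3:89227126-89227147 on the minus strand. Counted from 1 at the 5′ end and with miR-92a-3p as the reference, miR-25-3p differed by U1C, C14U and C18U and miR-92b-3p by U10C and G21C. miR-92a-3p is 21 nt long and the other two are 22 nt. Of the member reads, 844 (98.1%) had a miRNA part that matched 1 of the 3 strands only, without a mismatch.

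WT libraries held 1621 to 2331 hybrid reads and HM libraries 1661 to 5341. From 43.2% to 47.5% of WT hybrids and from 95.4% to 95.7% of HM hybrids were from 3p-miRNAs, so a 3p strand can rise per hybrid of any kind and fall per 3p hybrid. Both scales are given below, and the first used is the 3p hybrid. With no read seen, up to 3 reads are possible, or 0.0587% to 0.428% of a library's 3p hybrids; such floors, and the Wilson intervals plotted, cover counting error only. The libraries are biological replicates per the labels. WT libraries 1 and 2, and HM libraries 1 and 2, had miRNA counts that agree within sampling noise (chi-square tests). Whole sequences in common made up 1.79% of WT library 1 and 5.02% of HM library 1, so all libraries were kept apart. HM library 3 did not differ from HM library 1 (chi-square p = 0.0692) or HM library 2 (chi-square p = 0.195). WT library 3, of fewest reads, differed from WT library 1 (chi-square p = 0.00101) and WT library 2 (chi-square p = 2.62e-07).

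Per 3p hybrid, miR-92b-3p and, slightly, miR-92a-3p fell in HM cells, and miR-25-3p did not pass the test. miR-92b-3p, the least abundant, gave 8, 11 and 4 reads in the WT libraries, in order of replicate number, and 4, 14 and 4 reads in the HM libraries. Its share of 3p hybrids was 0.817% ± 0.224 (SD, n = 3) for WT cells and 0.225% ± 0.0663 (SD, n = 3) in HM, with no overlap between genotypes. Its log2 fold change per 3p hybrid was -1.83 (SE 0.47, edgeR quasi-likelihood test with Benjamini-Hochberg adjustment, adjusted p = 0.000251). The call was lost per hybrid of any kind, where the libraries overlapped (-0.79, edgeR adjusted p = 0.124). It was also lost with DESeq2, which was scaled over all miRNAs (-1.002, adjusted p = 0.125).

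miR-92a-3p, the most abundant, gave 61, 58 and 32 reads for WT cells against 59, 230 and 110 for HM cells. Its share of 3p hybrids was 5.51% ± 1.06 (SD, n = 3) for WT cells against 4.11% ± 0.388 (SD, n = 3) for HM cells. All HM values were under all WT values, but the nearest libraries of the genotypes, at 4.50% and 4.56%, almost met. The log2 fold change was -0.40 (SE 0.17, edgeR adjusted p = 0.0355). The call was lost without WT library 1 (-0.25, edgeR adjusted p = 0.291), WT library 2 (-0.44, edgeR adjusted p = 0.0793) or HM library 1 (-0.36, edgeR adjusted p = 0.0923).

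miR-25-3p gave 15, 23 and 13 reads for WT cells against 39, 116 and 59 for HM cells, or 1.87% ± 0.236 and 2.31% ± 0.131 of 3p hybrids (SD, n = 3 each). All HM libraries were higher than all WT libraries, and the log2 fold change of 0.28 (SE 0.26) did not pass the test (edgeR adjusted p = 0.330). Of the 94 miRNAs tested per 3p hybrid, 56 were called (59.6%) and 41 of these were lower (43.6%) and 15 higher (16%) in HM. WT and HM libraries were without overlap for 65 of the 94 (69.1%). Among the 58 3p-miRNAs tested, 24 were called (41.4%), 9 of them lower (15.5%) and 15 higher (25.9%) in HM, and 33 were without overlap (56.9%). The median log2 fold change was -0.72 over all 94 and 0.20 over the 3p-miRNAs among them. The paper describes a miRNA cluster that was unexpectedly silenced in the HM line, a clonal effect, and left it out of several figures. It was not taken out here, so its strands remain in the library totals and in the counts above. Their part in these values was not tested.

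**Figure D1:**
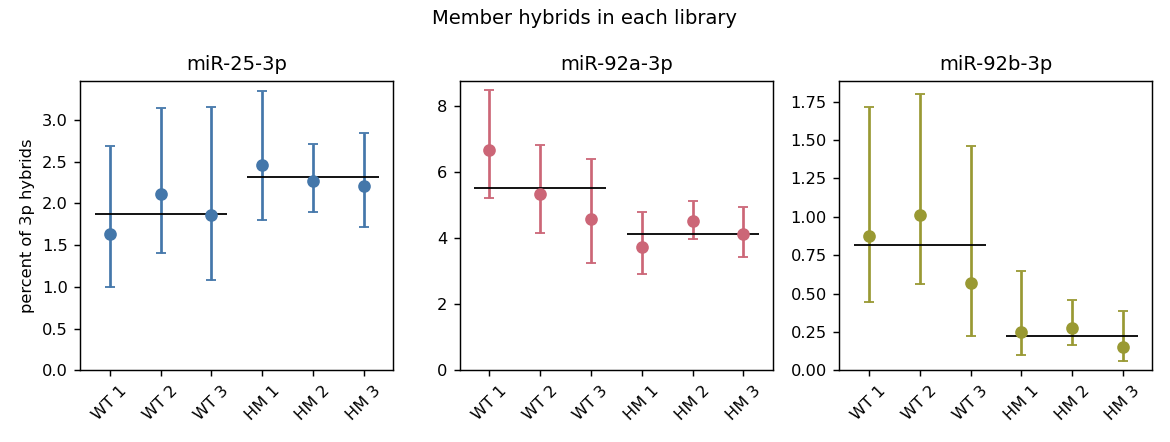
Percent of the 3p hybrids of each library (y axis) for each member, with 95% Wilson intervals for counting error as bars and the mean of each genotype as a black line. All HM points lie below all WT points for miR-92b-3p and miR-92a-3p and above them for miR-25-3p.

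Per hybrid of any kind, miR-25-3p and miR-92a-3p were higher in HM. miR-25-3p was 0.855% ± 0.114 of all hybrids in WT and 2.21% ± 0.124 in HM (SD, n = 3 each), or 1.33 on the log2 scale (SE 0.23, edgeR adjusted p = 4.66e-08). miR-92a-3p was 2.54% ± 0.596 in WT and 3.93% ± 0.377 in HM (SD, n = 3 each), or 0.65 on the log2 scale (SE 0.16, edgeR adjusted p = 0.000121). miR-92b-3p was 0.378% ± 0.117 and 0.215% ± 0.0635 (SD, n = 3 each), and its log2 fold change of -0.79 (SE 0.47) did not pass the test (edgeR adjusted p = 0.124). On this scale 63 of 94 miRNAs (67%) were called, 32 of them higher in HM (34%), and the median log2 fold change over all of them was 0.33. Relative to the median of the 3p-miRNAs, the log2 difference was 0.08 for miR-25-3p, -0.61 for miR-92a-3p and -2.04 for miR-92b-3p per 3p hybrid, and 0.13, -0.55 and -1.997 per hybrid of any kind.

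Ratios between members of 1 library do not depend on a library total. miR-92b-3p reads per miR-92a-3p read were 0.131, 0.190 and 0.125 for WT cells against 0.0678, 0.0609 and 0.0364 for HM cells, which was 2.75-fold lower in HM. miR-25-3p reads per miR-92a-3p read were 0.246, 0.397 and 0.406 in WT and 0.661, 0.504 and 0.536 in HM, which was 1.65-fold higher. miR-92b-3p reads per miR-25-3p read went from between 0.308 and 0.533 in WT to between 0.0678 and 0.121 in HM, which was 4.54-fold lower. The genotypes did not overlap for any of the 3 ratios, and each gave a two-sided exact permutation p = 0.1, the smallest that 3 against 3 libraries allow. Among the 3 members, miR-92b-3p went from 9.88% ± 1.92 of the member reads in WT to 3.37% ± 0.920 in HM, and miR-25-3p from 23.1% ± 4.63 to 34.9% ± 3.08 (SD, n = 3 each).

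**Figure D2:**
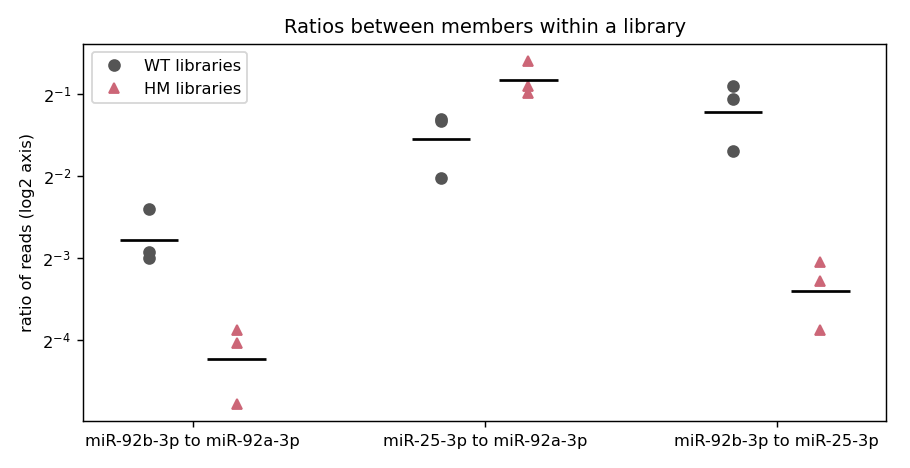
Ratio of the reads of a pair of members within each library (y axis, log2 scale), with WT libraries as circles, HM libraries as triangles and the mean log2 ratio of a genotype as a black line. Both ratios with miR-92b-3p on top were lower in every HM library, and miR-25-3p to miR-92a-3p was higher in every HM library.

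Other miRNAs carry the same seed. miR-363-3p, from the X-linked paralog cluster that also holds Mir92-2, gave 9, 2 and 5 reads for WT cells against 17, 67 and 42 for HM cells, and rose by 1.17 per 3p hybrid (log2, SE 0.39, edgeR adjusted p = 0.00615). This call was lost without WT library 2, at 0.63 (edgeR adjusted p = 0.243). miR-367-3p, a strand of the pluripotency-linked miR-302 cluster, was far more abundant than the members, with 570 WT and 1707 HM reads, and its log2 fold change of -0.20 (SE 0.11) did not pass the test (edgeR adjusted p = 0.102). miR-32-5p, which comes from a 5p arm, went from 21 WT reads to 1 HM read (log2 fold change -5.53, SE 0.80, edgeR adjusted p = 9.42e-11).

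Partners from the same primary transcripts differed by arm. The 5p strands beside miR-25, which are seed relatives of miR-17, fell: miR-93-5p went from 448 reads in WT to 3 in HM (edgeR adjusted p = 1.68e-97) and miR-106b-5p from 132 to 0 (edgeR adjusted p = 1.30e-47). In the miR-17-92 cluster, miR-17-5p went from 225 reads to 1 (edgeR adjusted p = 5.64e-68). Other 5p strands fell less far: miR-20a-5p of this cluster kept 37 reads after 140 in WT (log2 fold change -3.68, SE 0.27, edgeR adjusted p = 2.01e-33), and miR-20b-5p of the X-linked paralog 106 after 594 (-4.28, SE 0.16, edgeR adjusted p = 1.34e-87). The 3p guide miR-19b-3p, which is also encoded in both paralogous clusters of miR-92a, went from 142 to 666 reads (log2 fold change per 3p hybrid 0.43, SE 0.16, edgeR adjusted p = 0.0155). miR-19a-3p went from 19 to 52 reads and did not pass the test (-0.34, SE 0.43, edgeR adjusted p = 0.501). The passenger strand miR-17-3p went from 7 to 241 reads (log2 fold change 3.28, SE 0.42, edgeR adjusted p = 2.14e-13). For the 5p arms of the members' own hairpins there was 1 read in all, of miR-92b-5p in WT library 3.

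The miRNAs whose level over the 6 libraries was nearest to that of each member, by root mean square difference of the centred log2 share of 3p hybrids among 40 miRNAs with at least 50 reads (each member excluding itself), were taken as a description. For miR-25-3p they were miR-302b-3p (0.118), miR-19b-3p (0.141) and miR-301a-3p (0.193). For miR-92a-3p they were miR-302d-3p (0.154), miR-291a-3p (0.183) and miR-367-3p (0.188). miR-92b-3p had no neighbour as close, the nearest being miR-130b-3p at 0.461, miR-291a-3p at 0.613 and miR-295-3p at 0.628. With 45 reads it was itself under the minimum of 50, and these neighbours had 66, 119 and 90 reads. The part of counting error in these distances was not tested.

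The member hybrids fell on 260 genes, and reads were concentrated on few of them. There was 1 read on 153 genes, while the 11 genes with at least 10 member reads held 400 reads (46.5%). Of the genes, 198 had reads of 1 member only (114 of miR-92a-3p, 74 of miR-25-3p and 10 of miR-92b-3p) and 10 had reads of all 3. miR-25-3p and miR-92a-3p shared 47 genes, which was 37.3% of the 126 genes of miR-25-3p and 27.5% of the 171 genes of miR-92a-3p. At 45 reads each, the expected number of genes was 33.7 for miR-25-3p, 26.9 for miR-92a-3p and 35 for miR-92b-3p. With reads of all 3 members drawn to 49 a library, WT libraries gave 29.98 ± 2.56 and HM libraries 34.6 ± 2.28 genes (SD, n = 3 each). The lowest HM library, at 31.93, and the highest WT library, at 31.88, were next to each other.

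Fragments of 6 leading genes are shown as examples, since reads on them came mainly from 1 member or lacked the seed site. They are the most common window of at most 30 nt in the target fragments of a gene, in DNA letters as deposited, 5′ to 3′, with the seed site and the longest run complementary to bases 9 to 21 of the named strand in capitals:
Atp7a with miR-92a-3p: caaaaCAGGagcgggcaactttGTGCAATA
Sertad3 with miR-92a-3p: ataacCAGGCCGGaccatGTGCAATA
Gps1 with miR-25-3p: tgaaaCAGACCatGTGCAATt
E2f3 with miR-25-3p: caagtGAGAagatGTGCAATc
Camk2n1 with miR-92a-3p: agtCAGGCCGGGAgacagatgaggt
Tgif1 with miR-92a-3p: tcctgattGCCGGGggtgatggcaagagat

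The seed site is GTGCAAT, the reverse complement of bases 2 to 8, and it is followed by A in the fragments of Atp7a and Sertad3. Camk2n1 and Tgif1 have no such site in the windows shown, and none of the 9 fragments of Zfhx3, not shown, held one. The build against which the authors mapped was not stated, so no coordinates are given for these fragments, all of which were mapped to 3′ UTRs. Few reads had exactly the window shown. Among reads without an undetermined base, they numbered 20 of 129 for Atp7a, 10 of 43 for Sertad3 and 6 of 32 for Gps1. For E2f3 they numbered 2 of 10, for Camk2n1 4 of 22 and for Tgif1 3 of 31.

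Atp7a, which encodes a copper-transporting ATPase, was the leading target, with 132 member reads (15.3%). Of these, 128 were from miR-92a-3p, 3 from miR-92b-3p and 1 from miR-25-3p. The miR-92a-3p reads on Atp7a numbered 19, 18 and 10 for WT cells against 7, 51 and 23 for HM cells. Of all miR-92a-3p reads they made up 31.1%, 31.0% and 31.3% for WT cells against 11.9%, 22.2% and 20.9% for HM cells, with no overlap (p = 0.1 by a two-sided exact permutation test, its lowest value here). The pair fell per 3p hybrid by 1.04 on the log2 scale (SE 0.37, edgeR adjusted p = 0.0386), a call lost without WT library 1 (edgeR adjusted p = 0.321), WT library 2 (0.249), HM library 1 (0.0979) or HM library 3 (0.0759). On the scale of all hybrids its log2 fold change was 0.01. Over all miRNAs, Atp7a hybrids per hybrid of any kind did not pass the test (-0.20, SE 0.30, edgeR adjusted p = 0.729).

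Camk2n1, which encodes an inhibitor of CaM kinase II, had no member read in WT and 5, 11 and 6 reads in HM, all of miR-92a-3p. With 3 reads over the WT group as the floor, the HM level of the pair per 3p hybrid was 2.12 times that floor (edgeR adjusted p = 0.0202). Counting error of the HM reads is not in this value. The pair reached the minimum of 10 reads through HM libraries alone, so its call is a description only. The call was lost without WT library 1 (edgeR adjusted p = 0.133) or WT library 2 (0.176), with no minimum of reads (0.148) and with the replicate block (0.0556). Over all miRNAs, Camk2n1 gave 0, 2 and 0 reads for WT cells against 5, 13 and 9 for HM cells (log2 fold change per hybrid of any kind 2.88, SE 0.88, edgeR adjusted p = 0.0125), and this gene call was lost without WT library 1 or WT library 3. In bulk libraries more mRNA and more binding per mRNA cannot be told apart, and mRNA levels were not used here.

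Of 332 member-gene pairs, 11 had enough reads for the test, and these 2 were called; over all miRNAs 22 of 140 pairs were called (15.7%), 3 higher (2.14%) and 19 lower (13.6%) in HM. The median log2 fold change was 0.05 for the 11 pairs and -0.17 for all. With reads of all miRNAs of the seed added, 62 genes were tested and 3 were called, Camk2n1 (higher), Atp7a (lower) and Tmcc1 (lower), while 48 of 210 seed group pairs were called over all seeds (22.9%), 2 higher (0.952%) and 46 lower (21.9%). Camk2n1 again had HM reads only. The shares over all pairs and all seed groups include 5p strands, whose hybrids were largely lost in HM. Shares over 3p strands alone are not given here, so the members cannot be called more or less stable than other 3p strands. Tmcc1 had 10 reads, 9 of them of miR-367-3p and 1 of a member. Of the 11 genes with at least 10 member reads, Camk2n1 was the one called in the test of gene totals, against 57 of 344 genes (16.6%) in all, of which 20 were higher in HM (5.81%). With gene totals taken per 3p hybrid, Camk2n1 did not pass (log2 fold change 1.91, edgeR adjusted p = 0.1485), and Atp7a was called lower (-1.25, edgeR adjusted p = 0.000221). Gene totals hold 5p hybrids too, so on that scale genes sit lower than per hybrid of any kind, where Camk2n1 was at 2.88 and Atp7a at -0.20. The share of all genes called on that scale is not given here, so the Atp7a call is not read as a loss of that target.

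Tacc2, which encodes a centrosome-associated coiled-coil protein, had 56 member reads, 24 of miR-25-3p, 31 of miR-92a-3p and 1 of miR-92b-3p, or 87.5% of all hybrids on that gene. Sertad3, a regulator of transcription, had 43 reads, 37 of them of miR-92a-3p, and every hybrid on the gene was from a member. Gps1, a subunit of the COP9 signalosome, had 32 reads, 20 of miR-25-3p and 11 of miR-92a-3p. Tgif1, a homeobox repressor of TGF-β signalling, had 31 reads, 25 of them of miR-92a-3p.

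Ddx3x, an RNA helicase gene, had 28 member reads among its 107 hybrids. Pgam1, of glycolysis, had 13, the solute carrier gene Slc35f2 had 12 and the cell cycle transcription factor gene E2f3 had 10. Zfhx3 followed with 9, the Fmr1 relative Fxr1 with 8, and the remodeller gene Chd9, the gene Rabggtb and the amino acid transporter gene Slc38a2 with 7 each. None of the pairs with these genes that was tested passed the test.

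**Figure D3:**
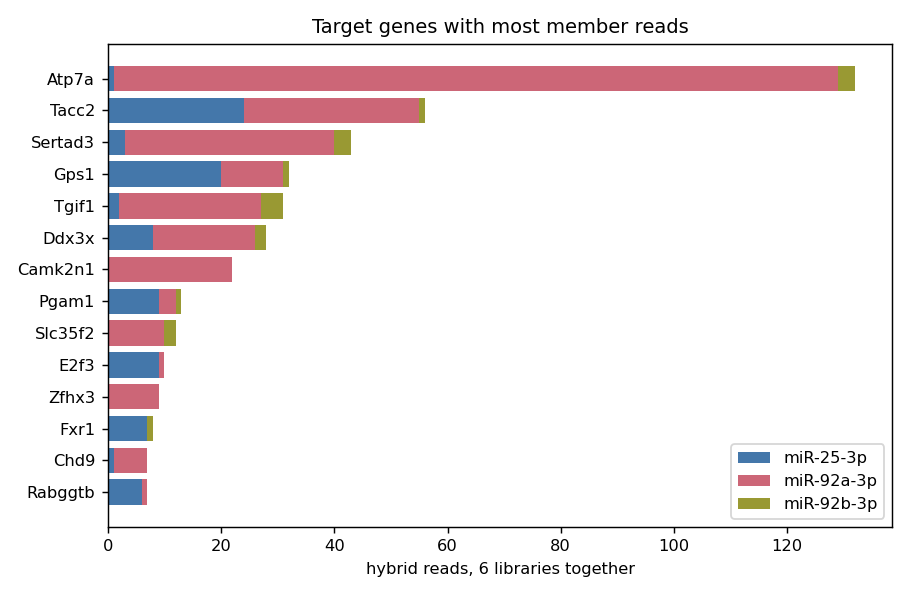
Hybrid reads over the 6 libraries together (x axis) for 14 target genes with most member reads, split by member. Most reads on Atp7a, Sertad3, Tgif1, Camk2n1 and Slc35f2 were of miR-92a-3p, while Gps1, Pgam1 and E2f3 had more reads of miR-25-3p.

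Some of these genes took unlike shares of the reads of miR-92a-3p and miR-25-3p. Atp7a took 23.3% of the miR-92a-3p reads and 0.377% of the miR-25-3p reads, and its share was higher for miR-92a-3p in 6 of 6 libraries. Sertad3 took 6.73% and 1.13%, again higher for miR-92a-3p in 6 of 6. E2f3 took 0.182% of the miR-92a-3p reads and 3.4% of the miR-25-3p reads and was higher for miR-25-3p in 6 of 6. Gps1 took 2.0% and 7.55%, and was higher for miR-25-3p in 4 libraries and for miR-92a-3p in 1. Others differed less, such as Ddx3x, with 3.27% of the miR-92a-3p and 3.02% of the miR-25-3p reads. None of the 11 genes compared passed an exact paired permutation test over the 6 libraries after adjustment (lowest adjusted p = 0.115), and the comparison was chosen after their values were seen.

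Most member fragments held a site for the seed. The reverse complement of bases 2 to 8 was in 548 of 860 fragments (63.7%), and 411 of these were followed by A (8mer sites). A shorter site, of bases 2 to 7, brought the share to 69.8%. In the fragments joined to miRNAs of other seeds, the shares were 0.485% and 1.17%. The authors kept only interactions that TargetScan predicts, a filter on genes with sites for the seed, and its part in these shares was not tested.

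By member, the site of bases 2 to 8 was in 75.5% of the fragments of miR-25-3p, 59.6% of those of miR-92a-3p and 44.4% of those of miR-92b-3p. The share was higher for miR-25-3p than for miR-92a-3p in 5 of 6 libraries. miR-367-3p fragments held it in 55.3%. For the members together the share differed between genotypes by less than the spread between libraries, at 63.5% ± 3.38 in WT and 63.8% ± 1.92 in HM (SD, n = 3 each). The members moved in different directions: for miR-92b-3p it was 31.8% ± 11.8 for WT cells against 52.4% ± 4.12 for HM cells, without overlap but on 23 and 22 reads (p = 0.1 by the exact permutation test, its lowest value here), and for miR-92a-3p 63.8% ± 4.32 against 57.1% ± 3.32 (exact permutation p = 0.2). With shorter sites counted too, miR-92a-3p was at 67.7% ± 3.65 against 61.8% ± 3.13 (exact permutation p = 0.1). Its genotypes did not overlap, but the nearest libraries, at 65.5% and 65.2%, almost met. On that count miR-92b-3p was at 56.8% ± 15.9 against 60.7% ± 12.9, with overlap (exact permutation p = 0.8). Without Camk2n1 and Tgif1, whose fragments mostly lacked the site, the members together were at 72.1% ± 0.651 against 74.6% ± 1.93 (exact permutation p = 0.2). SD is over n = 3 each throughout.

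**Figure D4:**
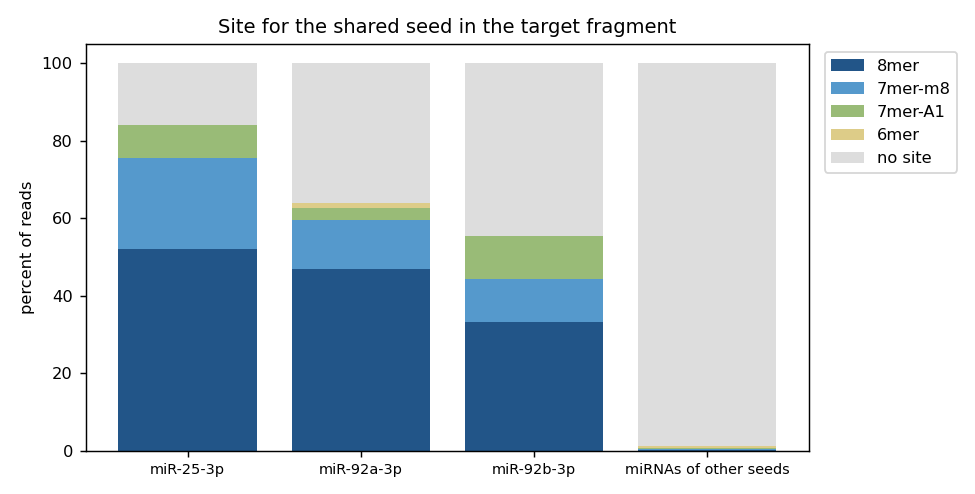
Percent of hybrid reads (y axis) whose fragment held each kind of site for the shared seed, by the longest site found, for the 3 members and for all miRNAs of other seeds. An 8mer site was in 52.1% of the miR-25-3p reads, 46.9% of the miR-92a-3p reads and 33.3% of the miR-92b-3p reads.

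Some miR-92a-3p fragments were also complementary to its 3′ end. A run of at least 7 bases complementary to bases 9 to 21 of miR-92a-3p was in 82 of its 550 fragments (14.9%), compared with 1.51% of the fragments of miR-25-3p, 6.67% of those of miR-92b-3p and 0.170% of those of miRNAs of other seeds. For miR-25-3p, a run of that length against its own bases was in 1.51% of its fragments, and for miR-92b-3p in 8.89% (4 of 45 reads). Most of the 82 reads were on 2 genes, 36 on Sertad3 and 21 on Camk2n1, and without both genes the share for miR-92a-3p was 5.09% (25 of 491 reads). Of the 82 reads, 37 also held the seed site and 45 did not. In Camk2n1, 21 of 22 member reads lacked the seed site, and 20 held a 10-base run with miR-92a-3p; the same run was in 1 read of all miRNAs of other seeds. In Tgif1, 30 of 31 reads lacked the seed site and 29 held a 6-base run. In Sertad3, 42 of 43 reads held the seed site, and the median run was 8 bases with miR-92a-3p and 4 with miR-25-3p. In Gps1 the median run was 4 bases with miR-92a-3p and 6 with miR-25-3p.

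The member joined to a fragment differed with the longer run. Where the run was longer with miR-92a-3p, 406 of 454 reads (89.4%) were of miR-92a-3p and the rest of miR-25-3p. Where the runs were equal it was 42.5% of 252 reads, and where the run was longer with miR-25-3p it was 33.9% of 109. The lowest library of the first class, at 81.8%, was above the highest of the second, at 57.1%, and of the third, at 71.4%. This comparison was chosen after the fragments were seen and is a description. Without the 11 genes of at least 10 member reads the shares were 88.6%, 41.4% and 33.3%.

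Fragments of miR-92a-3p had the longer run with miR-92a-3p in 73.8% of reads and with miR-25-3p in 6.73%. For fragments of miR-25-3p the shares were 18.1% and 27.2%, and for fragments of 3p-miRNAs of other seeds 25.0% and 20.5%. Fragment length moved with the member, with a median of 33 nt for miR-92a-3p and 24 nt for miR-25-3p (ranges over libraries 31 to 35 and 22 to 27 nt). Among fragments of 20 to 29 nt the share of miR-92a-3p was 84.9% where its run was longer and 37.8% where that of miR-25-3p was, and among those of 30 nt or more it was 91.0% and 31.2%.

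**Figure D5:**
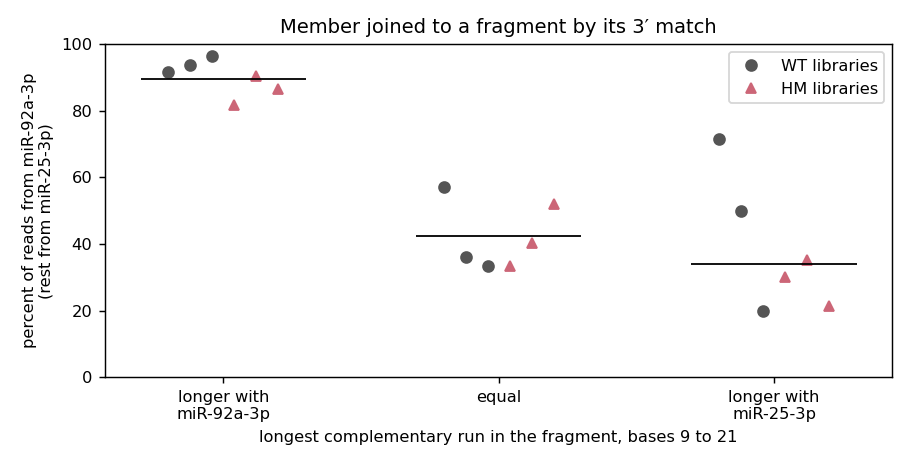
Percent of the miR-92a-3p and miR-25-3p reads that were of miR-92a-3p (y axis), by which strand had the longer complementary run in the fragment (x axis), with WT libraries as circles, HM libraries as triangles and the pooled value as a line. The first class, at 89.4%, lies above both other classes in all 6 libraries.

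The miRNA part mostly began at the first base of the mature strand. It did so in 264 of 265 miR-25-3p reads, 515 of 550 miR-92a-3p reads (93.6%) and 43 of 45 miR-92b-3p reads. For miR-92a-3p, 33 reads began 1 base later. For the 3 members together, the share at the mature start was 92.8% ± 1.15 for WT cells against 96.1% ± 1.68 for HM cells (SD, n = 3 each). The genotypes did not overlap, but WT library 1, at 94.05%, and HM library 1, at 94.12%, almost met. The make-up of the member reads also differed, with miR-25-3p at 23.1% of them in WT and 34.9% in HM, and its part in the pooled share was not tested. For miR-92a-3p alone the share at the mature start was 90.2% ± 3.01 against 93.8% ± 3.49 (SD, n = 3 each), and the genotypes overlapped (two-sided exact permutation p = 0.2). The 3p-miRNAs of other seeds that had a reference mature sequence moved the opposite way, from 90.5% ± 0.913 to 87.6% ± 1.27 (SD, n = 3 each). They were without overlap (p = 0.1 by the same exact test, its lowest value here). That set left out miR-363-3p and miR-367-3p, which share the seed of the members. 3p strands of other seeds changed unequally, with miR-17-3p at 7 WT and 241 HM reads and miR-19b-3p at 142 and 666. The part of such a change of make-up in the share of that set was not tested either.

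Genes from lists of pathways were counted as a description, beside the 8.13% of all 3200 target genes that had a member read. The lists were written from general knowledge with earlier results known, and the filter keeps genes with predicted sites. Of 24 genes reported as targets of the family, 15 had any hybrid and 7 had a member hybrid: Btg2, Cpeb4, Dnajb9, Fbxw7, Hipk3, Map2k4 and Rnf4. For PI3K and TOR signalling it was 3 of 13 (Akt1, Phlpp2 and Rictor), and for the cell cycle 5 of 18, led by E2f3 with 10 reads. Apoptosis regulators had 1 of 8 (Bak1), TGF-β and BMP signalling 1 of 18 (Bmpr2), the miRNA machinery 2 of 15 (Lin28a and Tnrc6c) and pluripotency factors 1 of 6 (Lin28a). Among all these genes, E2f3 was the one with at least 5 member reads.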

How the data were processed

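AGO2 CLASH hybrids of 3 WT and 3 HM libraries were used. The authors named the miRNA part with QuagmiR, aligned the target part to 3′ UTRs of mouse coding genes with Bowtie2 and kept only interactions predicted by TargetScan. Their build, their handling of PCR duplicates and the versions of both mapping tools are not given in the sources used here. Fragments from outside 3′ UTRs are therefore missing, and duplicates may inflate counts. The deposited counts are unscaled reads for each distinct hybrid sequence, gene and library; totals were 1929, 2331 and 1621 in WT and 1661, 5341 and 2797 in HM, so pairs of few reads have wide errors. Genotype and replicate came from the sample titles. No column of other samples was used.

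Reads were summed per miRNA, pair, seed group (miRNAs with the same bases 2 to 8) and gene. Features with at least 10 reads were tested over the whole table with the edgeR 4.0.16 quasi-likelihood test (R 4.3.3) and Benjamini-Hochberg adjustment at 0.05, with the total of 3p hybrids (genes: of all hybrids) as library size. SE was the log2 fold change over the root of F. Single values were compared by exact permutation tests. DESeq2 1.42.0, TMM scaling, other minimums, sequences counted once, a replicate block and left-out or merged libraries were alternatives; adding WT libraries 1 and 2 together, the runs with the 3′ bases (also without Camk2n1 and Sertad3) and the comparisons of members by gene were chosen after seeing the data. Scripts were tested on simulated data.

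Named genes were the 15 with most member reads (Slc38a2 ties with the last), those in a called pair, those with 10 or more reads of all 3 members, and listed genes with 5 or more; 1 target gene is not reported here. Members and lists were chosen with earlier results of these data known. Of the 260 target names, 243 were symbols and 9 synonyms in the reference table of GRCm38.p6. Of 298 miRNAs, 255 had a mature sequence there, and the others formed seed groups of their own.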

Additional observations from a re-analysis of the deposited data

How the results depend on the processing

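The log2 fold change of miR-25-3p passed the test with TMM scaling (0.69), the total of all hybrids (1.33) and DESeq2 (1.15), and per 3p hybrid ranged from 0.19 to 0.40 with each library left out. That of miR-92a-3p turned to 0.0092, 0.65 and 0.43 under the same settings, lost its call with no minimum (-0.40), HM libraries 1 and 2 added together (-0.39) or WT libraries 1 and 2 added together (-0.38), and ranged from -0.49 to -0.25 with each library left out. That of miR-92b-3p lost its call with the total of all hybrids (-0.79) and DESeq2 (-1.002) and ranged from -2.11 to -1.63. miR-367-3p turned to 0.22, 0.86 and 0.65 under TMM, the total of all hybrids and DESeq2, and Atp7a with miR-92a-3p to 0.0066 per hybrid of any kind. Called member pairs numbered 1 under TMM, all hybrids, DESeq2 and either merging, 0 with no minimum or at least 30 reads, and 0 to 2 with a library left out. Seed group genes called numbered 9 under TMM, 11 with all hybrids, 1 with no minimum or 30 reads and 0 to 3 with a library left out. Called genes of 10 or more member reads numbered 0 with DESeq2, no minimum or 30 reads, 2 with the 3p total and 0 to 1 with a library left out. The shares called over all pairs, seed groups and genes under these settings are not given here. These counts are therefore not read as results about the members. The share of the members together fell by 1.55 points per 3p hybrid (-2.15 to -1.06) and rose by 2.58 points of all hybrids. The difference in target genes was 61 with all reads (3.11 to 10.2). That in seed sites was -0.056 with sequences counted once (-0.84 to 2.24), and that in starts -0.19 within 1 base (2.77 to 4.27). The ratios between members kept their direction under each alternative run, at -1.63 to -1.18, 0.49 to 0.85 and -2.42 to -1.94 (log2) with a library left out. The cause of these changes was not tested. At this depth 11 of 332 pairs had the reads to be tested.

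Libraries with the same replicate number did not deviate together (correlations 0.03, -0.09 and -0.03 over 40 miRNAs), and were not taken as pairs. With the replicate block miR-92a-3p (-0.41) and miR-363-3p (1.17, edgeR adjusted p = 0.0747) lost their calls, miR-25-3p was 0.30 and miR-92b-3p -1.84, 0 member pairs, 2 seed group genes and 1 gene were called. The shares called over all features with the block are not given here either.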
